A study of Mus musculus with 2 samples.

Results

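The nuclear genes for subunits of the mitochondrial respiratory chain were followed in mouse epidermis after SOX11 induction. They were taken by name, as every non-control probe on both arrays whose gene name begins with Ndufa, Ndufb, Ndufc, Ndufs or Ndufv and a digit, with Uqcr, with Cox and a digit from 4 to 8, or with Atp5, or is Sdha, Sdhb, Sdhc or Sdhd. This gave 124 of 55676 probes tested, carrying 85 of 34820 names. Complex I held 37 genes, complex II 4, complex III 8, complex IV 18 and complex V 18. Where a gene had several probes, the brightest stood for it. A few of these names are not subunits in the strict sense. Cox7a2l is a supercomplex factor, Atp5sl and Atp5s are now called Dmac2 and Dmac2l, Atp5c1-ps is a pseudogene, and Ndufa4, listed here under complex I by its name, is now counted as a subunit of complex IV.

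Each of 2 two-colour arrays set RNA from the epidermis of a pup with K14-rtTA and TRE-Sox11-FLAG (Cy5) against that of a littermate with K14-rtTA alone (Cy3). All 4 pups were FVB/N mice at P4.5, and all received doxycycline (Dox) for 12 h, controls included. The keratin 14 promoter drives rtTA, a Dox-dependent activator, so SOX11-FLAG was switched on in keratin 14 positive cells, while the RNA came from the whole epidermal sheet. Both arrays had the same dye orientation in the labels, so that dye and genotype cannot be told apart for a single probe. Both Sox11 probes were dimmer than the scanner software's background limit throughout, so the induced gene could not check the labels. The paper built the transgene from the Sox11 open reading frame, and whether these probes lie within it was not analysed. Values are log2 ratios of SOX11-induced over control epidermis after loess, a correction that centres the ratios at every level of brightness, and adjusted p-values are from limma over all probes.

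The respiratory chain moves electrons from NADH and succinate to oxygen and uses the energy released to build a proton gradient across the inner mitochondrial membrane. Complex I accepts electrons from NADH and complex II from succinate, complex III passes them from ubiquinol to cytochrome c, and complex IV reduces oxygen. Complex V, the ATP synthase, makes ATP as protons flow back. Complex II is also an enzyme of the tricarboxylic acid cycle. Except in complex II, a few core subunits are encoded by mitochondrial DNA, and all other subunits are nuclear genes whose products are imported. In keratinocytes, mitochondria are lost as the cells turn into cornified squames.

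Of the 85 genes, 82 were well above background on both arrays in 1 channel or more, while 39.1% of all probes were. No member was saturated. Those not above background in any channel were Cox7b2, Cox8b and Cox8c, isoforms known from testis, heart and skeletal muscle.

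Sdhd, Cox6b2 and Cox5a are the members on which the results turn, and the first 30 bases of each probe are shown to identify what was hybridised. Coordinates are those of the whole probe in the array files (mm9).
Sdhd, chr9:50404630-50404689: aggaggttgaggaaagctggatttagacaa
Cox6b2, chr7:4703488-4703547: ggaactttcccgggcaaaatatgaccttgc
Cox5a, chr9:57379593-57380141: cccttcgatgggcttcctaaggacttaact
The Cox5a probe has 60 bases but a longer span on the genome, so it crosses at least 1 intron. Each of these genes had 1 probe, so that no second probe could be set beside it. Where in the transcripts the probes lie was not analysed here, since no mm9 annotation was used.

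Sdhd, which encodes a membrane anchor subunit of complex II, was the lowest of all members. Its log2 brightness was 10.96 in the control and 10.16 in the SOX11 channel of array 1, and 10.99 and 10.17 on array 2. The log2 ratios were thus -0.80 and -0.82, averaging -0.81 ± 0.010 (SD, n = 2), which is 1.75-fold lower (adjusted p = 0.018, limma). Both SOX11 channels lay below both control channels, in brightness that was not scaled between arrays. Cox6b2, known as the testis isoform of a complex IV subunit that faces the intermembrane space, had a log2 brightness of 8.04 in the control and 7.34 in the SOX11 channel on array 1, and of 8.38 and 7.61 on array 2. Its log2 ratios were -0.70 and -0.77, averaging -0.74 ± 0.049 (SD, n = 2), or 1.66-fold lower (adjusted p = 0.027, limma), and its channels did not overlap either. How many of all probes have channels that separate in this way was not counted. All 4 channels were well above background for both genes.

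These 2 genes were the only members past an adjusted p of 0.05 after loess, and both fell. They are 1.61% of the 124 member probes, while 4.39% of all 55676 probes passed in either direction and 1.41% passed downwards. Among probes above background the share was 1.69% of 118 member probes against 9.99% of 21782. At an unadjusted p under 0.05 there were 8 of the 85 members (9.41%), against 21.1% of all probes and 31.2% of those above background. No member was past a log2 ratio of 1.5, which 252 of all probes (0.453%) were with an adjusted p under 0.05. Of the 82 genes above background, 80 had a 95% confidence interval within 1 on the log2 scale (2-fold) in either direction, the exceptions being Sdhd and Cox6b2. The same held for 87.9% of all probes above background and 94.5% of all probes. These intervals hold after loess. With median centring, Cox5a (1.34) and Uqcrh (1.08) had means past 1. With 2 arrays an exact sign-flip test cannot give a p under 0.5, and the adjusted p-values rest on the spread shared across all probes.

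Both calls depended on how the arrays were centred. With each array centred on its median in place of loess, Sdhd had a mean of -0.18 (adjusted p = 0.385, limma) and Cox6b2 a mean of -0.25 (adjusted p = 0.244). In the series table, the authors' own log2 ratios, Sdhd kept its call (adjusted p = 0.0257) and Cox6b2 did not (adjusted p = 0.0561). With the processed signals of the scanner software, the means were -0.86 and -0.88, but no probe of the array passed an adjusted p of 0.05.

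Cox5a had the highest ratio of all members. It encodes a nuclear subunit of complex IV on the matrix side. Its log2 brightness was 13.72 in the control and 14.36 in the SOX11 channel of array 1, and 13.84 and 14.38 on array 2. The log2 ratios were 0.64 and 0.53, averaging 0.59 ± 0.077 (SD, n = 2), which missed the threshold (adjusted p = 0.062, limma). Both SOX11 channels lay above both control channels, a separation that was likewise not counted over all probes. With an offset of 50 in place of 16 Cox5a passed (mean 0.59, adjusted p = 0.00735, limma), as did 7.91% of all probes. It also passed where only probes above background were tested (adjusted p = 0.0429), as did 11.9% of those probes. With median centring it passed (mean 1.34, adjusted p = 0.000225), as did 33.2% of all probes. Cox5a missed the threshold in the series table (adjusted p = 0.0936), with processed signals (0.244) and with control spots included in loess (0.0639).

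**Figure D1:**
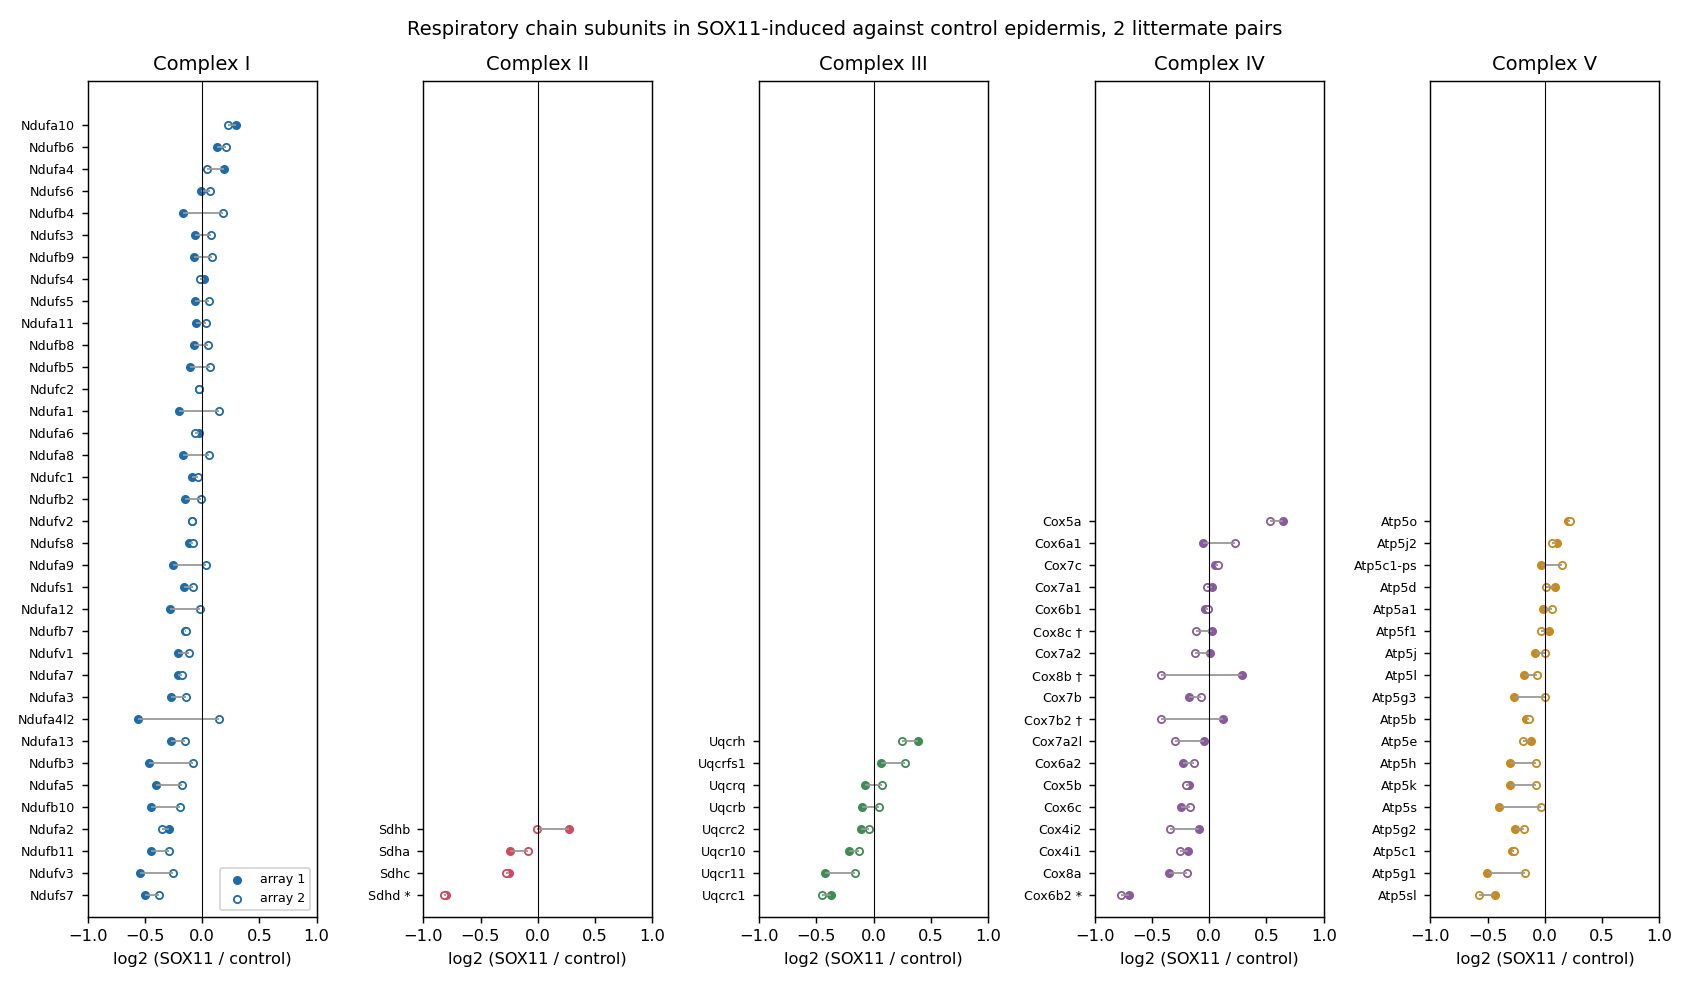
Log2 ratio of SOX11-induced over control epidermis for the member genes, in 1 panel per complex and with 1 gene of complex I left out, with filled points for array 1 and open points for array 2 joined by a line. An asterisk marks an adjusted p under 0.05 (Sdhd and Cox6b2), and a dagger marks genes not above background in any channel (Cox7b2, Cox8b and Cox8c). Values are after loess, and with median centring most members lie above 0.

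The members lay close together. Their mean log2 ratios ran from -0.81 to 0.59 with an SD of 0.201 over genes, while the SD over all probes above background was 0.452. The median SD of a gene over the pairs was 0.0858, against 0.132 for probes above background. Members were bright, with a median log2 brightness of 12.6 against 5.24 for all probes, and no probes matched for brightness were compared. The median log2 ratio of the members was -0.15 on array 1 and -0.06 on array 2, and -0.11 for the mean, while the median of all probes above background was 0.04. Of the 118 member probes above background, 71 (60.2%) were lower on both arrays, against 33.1% of all such probes, and 16 (13.6%) were higher on both, against 41.0%. Member probes overlap and share genes, so these shares are a description. They turn with the centring. Median centring raised bright probes, the median of all probes above background becoming 0.51 and that of the members 0.57, and then 2 member probes (1.69%) were lower on both arrays and 112 (94.9%) were higher, against 5.79% and 82.7% of all probes above background. Under it, 62 of the 85 members were past an adjusted p of 0.05, all upwards, while 33.2% of all probes and 56.0% of those above background were past it in either direction. Their median lay 0.15 below that of all probes above background after loess and 0.06 above it with median centring.

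**Figure D2:**
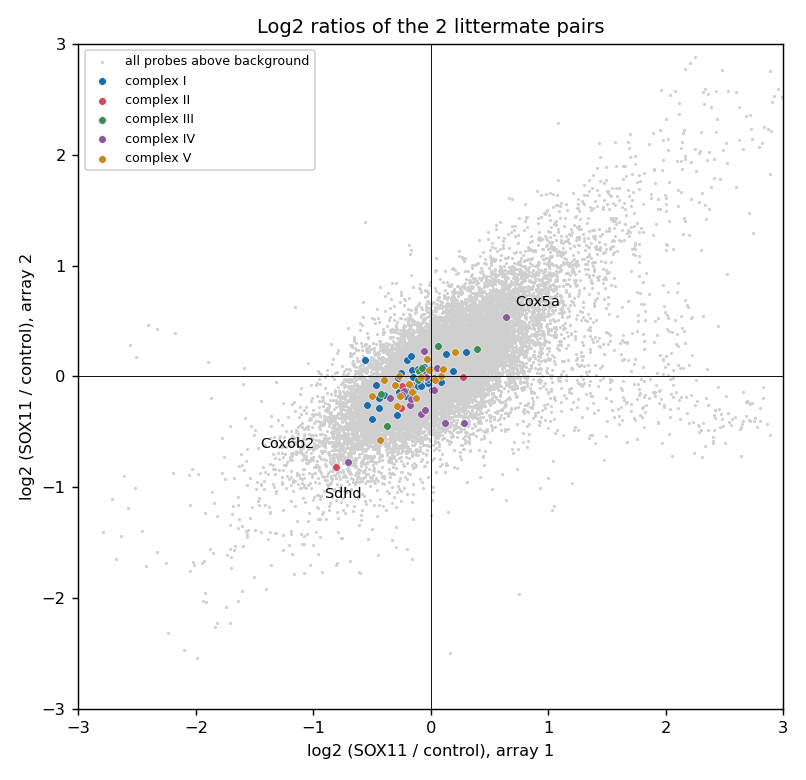
Log2 ratio on array 1 (horizontal) against array 2 (vertical) after loess, for all probes above background (grey, of which 30 lie beyond 3 in either direction and are not drawn) and for the 85 members, coloured by complex. The members lie near the centre of the cloud between -0.81 and 0.59 in the mean, with Sdhd and Cox6b2 at one end and Cox5a at the other.

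Complex II had the lowest median of the 5 complexes. With 4 genes its median was -0.25 on array 1 and -0.18 on array 2. Sdha, the flavoprotein that oxidises succinate, had log2 ratios of -0.25 and -0.09, and Sdhc, the other membrane anchor, of -0.25 and -0.28. Sdhb, the iron-sulfur subunit, had 0.27 and -0.01. None of these passed the test, with adjusted p-values of 0.573, 0.342 and 0.676 (limma). Within each array, Sdhd lay below each of its partners under all the ways of processing tried, by 0.52 or more, median centring included. The difference in log2 ratio between Sdhd and Sdha averaged -0.64 ± 0.121, that to Sdhb -0.94 ± 0.189 and that to Sdhc -0.54 ± 0.011 (SD, n = 2).

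The other complexes were closer to 0. Complex I had a median of -0.15 on array 1, -0.03 on array 2 and -0.08 for the mean, and 20 of its 37 genes were lower on both arrays and 3 higher. Complex III had medians of -0.10 and 0.01, and complex IV of -0.05 and -0.15. The complex IV medians include Cox7b2, Cox8b and Cox8c, which were not above background in any channel. For the mean, complex IV had -0.14 with these genes and -0.17 over genes above background. Complex V had medians of -0.17 and -0.05, with 12 of 18 genes lower on both arrays. Among the 10 pairs of complexes, the order of the medians was the same on both arrays in 7. The largest difference was 0.197 on the log2 scale, between complexes II and IV on array 1. Both values include the complex IV genes not above background, and the differences were not taken without them. No test was made of these differences, as genes of a complex are not replicates.

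In complex I, the largest of the chain, the lowest gene was Ndufs7, an iron-sulfur core subunit of the arm that reduces ubiquinone, with log2 ratios of -0.50 and -0.38 (adjusted p = 0.136, limma). The highest was Ndufa10, an accessory subunit, with 0.30 and 0.22 (adjusted p = 0.353). Other nuclear core subunits lay nearer to 0. Ndufv1, which binds NADH, averaged -0.16, Ndufs1 -0.12, Ndufs8 -0.10, Ndufv2 -0.09 and Ndufs3 0.01. In complex III the lowest was Uqcrc1, a core protein, with -0.37 and -0.45 (adjusted p = 0.158), while its partner Uqcrc2 had -0.11 and -0.03. Uqcrfs1, the Rieske iron-sulfur protein that hands electrons on towards cytochrome c, averaged 0.17. The highest was Uqcrh, the hinge protein near the cytochrome c site, with 0.39 and 0.25 (adjusted p = 0.265). In complex V the catalytic F1 subunits Atp5a1 and Atp5b averaged 0.02 and -0.15. The lowest name listed under complex V was Atp5sl, with -0.44 and -0.58 (adjusted p = 0.0963, limma), which is not a subunit in the strict sense. Without Atp5sl the lowest was Atp5g1, which averaged -0.34. The highest was Atp5o, a part of the stalk that holds F1 still, with 0.20 and 0.22 (adjusted p = 0.454).

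Subunit c, the rotor ring of the ATP synthase, is made from 3 genes with the same mature protein. Atp5g1 had log2 ratios of -0.50 and -0.18, Atp5g2 of -0.26 and -0.18, and Atp5g3 of -0.27 and 0.00, and none passed the test. Probes of Atp5g1 disagreed the most among the 26 genes with several probes above background. Its brightest averaged -0.34 and its second 0.17, a gap of 0.506, while the median gap over the 26 genes was 0.054. In 6 of these genes the probes had opposite signs, and 57 genes had a single probe.

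Several complex IV subunits exist as a widely expressed and a tissue-restricted isoform. Cox6b2 lay below Cox6b1, its widely expressed partner, by 0.66 on array 1 and 0.76 on array 2, since Cox6b1 had log2 ratios of -0.04 and -0.01. The Cox4i, Cox6a and Cox7a pairs lay closer together after loess. Cox4i2, known as the lung isoform, had -0.09 and -0.34 beside -0.18 and -0.26 for Cox4i1. Cox6a2, the heart and muscle isoform, had -0.23 and -0.13 beside -0.06 and 0.22 for Cox6a1. Both Cox4i2 and Cox6a2 were dim, between 5.81 and 6.42 in log2 brightness. With processed signals Cox4i2 averaged -0.46 beside -0.17 for Cox4i1, and Cox6a2 averaged -0.54 beside 0.0043 for Cox6a1. Cox7a1, also of heart and muscle, had 0.03 and -0.02 beside 0.01 and -0.13 for Cox7a2. Cox8a, the widely expressed form, had -0.35 and -0.19, whereas Cox8b and Cox8c were not above background and no fold is given for them. Ndufa4l2, a paralogue of Ndufa4 known as a target of hypoxia signalling, had -0.56 and 0.15, one of the largest gaps between the arrays among the members. The gap was 0.702, second to the 0.708 of Cox8b, and Ndufa4 itself had 0.19 and 0.05. The difference of Ndufa4l2 from Ndufa4 was thus -0.75 on array 1 and 0.10 on array 2. Cox5a lay above Cox5b, which binds to the same complex, by 0.82 and 0.74. None of the genes in this paragraph other than Cox6b2 passed the test.

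For some members the array held probes at a second place in the genome with nearly the same bases, as for processed copies of a transcript. A stretch of 30 bases from each such pair for Uqcrh and Uqcr11 shows how little separates them, with the base that differs in capitals.
Uqcrh, chr4:115739571-115739630: ctcttctgtgtGactagcagtgacttcatc
Uqcrh, chr2:118834335-118834394: ctcttctgtgtAactagcagtgacttcatc
Uqcr11, chr10:79865745-79865804: tagggctgccttgatGggtgcagcattaaa
Uqcr11, chr1:168361642-168361701: tagggctgccttgatAggtgcagcattaaa
The Uqcrh probes shared 53 bases with 1 mismatch and gave mean log2 ratios of 0.32 on chromosome 4 and 0.31 on chromosome 2. The Uqcr11 probes shared 52 bases with 1 mismatch and gave -0.29 and -0.30. The Ndufb11 probes on chromosomes X and 5 shared 55 bases without a mismatch and gave -0.37 and -0.30. Such probes cannot say from which place the RNA came, and these genes are uncertain to that degree. For Atp5l and Atp5j2 the brightest probe was the one placed away from the other probes of the gene, on chromosomes X and 9.

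The promoters of the members were searched for letters known from respiratory genes, in the 250 bases before the annotated start (RefSeq, GRCm38.p6, both strands). A promoter was at hand for 69 of the 85 genes and for 27025 genes in all. The core of the NRF1 site, searched as GCGCANGCG, was present in 14 member promoters (20.3%) and in 5.86% of all. The ETS core bound by GABP, CCGGAAG, was present in 12 (17.4%) and in 7.83% of all, and the YY1 letters AAGATGGCG in 2 (2.90%) and in 0.710%. The SOX letters AACAAAG were present in 4 (5.80%) and in 5.77% of all. The median log2 ratio was -0.15 for the 14 members with the NRF1 letters and -0.10 for the 55 without, and -0.09 for the 4 with the SOX letters and -0.11 for the 65 without. These matches are letters in a window, not sites of binding.

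Sdhd carries both the NRF1 and the ETS letters, and it starts head to head with Timm8b, which encodes a chaperone of protein import into mitochondria. The 51 bases between the annotated starts, at chr9:50603850-50603900 of GRCm38.p6, are printed on the strand of Sdhd because both genes share them, with the ETS letters in capitals.
Sdhd and Timm8b: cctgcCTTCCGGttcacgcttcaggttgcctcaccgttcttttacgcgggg
The NRF1 letters GCGCACGCG lie at chr9:50603920-50603928, past the start of Timm8b. Timm8b, named after its values were seen, had 0.56 and 0.46 as its log2 ratios, averaging 0.51 ± 0.069 (SD, n = 2), with an adjusted p of 0.0912 (limma). The neighbours thus had ratios of opposite sign on both arrays after loess, and Timm8b did not pass the test. With median centring the means were -0.18 for Sdhd and 1.19 for Timm8b.

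The promoters of Cox6b2 and Cox5a held none of these letters in the window. The last 100 bases before their starts are printed for comparison with that of Sdhd, at chr7:4753095-4753194 on the minus strand and chr9:57521132-57521231 on the plus strand of GRCm38.p6.
Cox6b2: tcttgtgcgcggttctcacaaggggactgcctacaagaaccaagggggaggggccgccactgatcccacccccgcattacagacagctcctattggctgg
Cox5a: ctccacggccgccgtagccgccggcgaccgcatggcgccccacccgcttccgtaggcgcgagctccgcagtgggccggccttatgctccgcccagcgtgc

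Genes that build, feed or regulate the chain were examined as lists beside it, to be read against the 9.99% of probes above background past an adjusted p of 0.05 after loess. None of 38 assembly factors passed the test (median -0.12), none of 21 regulators of mitochondrial biogenesis and transcription (median -0.12), and none of 76 mitochondrial ribosomal proteins (median -0.09). At an unadjusted p under 0.05 there were 13 (34.2%), 7 (33.3%) and 12 (15.8%), beside the 31.2% of probes above background. Among the regulators, Ppargc1a, the coactivator of mitochondrial biogenesis, had log2 ratios of 0.02 and 0.09. Tfam, which packages and transcribes mitochondrial DNA, had -0.25 and -0.73, and Nrf1 had 0.54 and 0.34, with adjusted p-values of 0.137 and 0.143 (limma). Among 15 genes of the mobile carriers and ubiquinone synthesis (median -0.07), Adck3, a kinase-like protein needed for ubiquinone synthesis, fell with log2 ratios of -0.75 and -1.46 (adjusted p = 0.013).

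The 13 protein-coding genes of mitochondrial DNA had a median of -0.07 on array 1 and 0.17 on array 2, and none passed the test (2 at an unadjusted p under 0.05). These lay between -0.34 for ND3 and 0.34 for ND1. Of the 13 probes, 7 were placed on the mitochondrial genome and 6 on chromosome 1, where the nuclear genome holds a copy of mitochondrial sequence.

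Among probes above background, 6.78% passed upwards and 9.99% in either direction after loess. Of the genes that supply the chain, 2 of 24 (8.33%) in the tricarboxylic acid cycle and pyruvate dehydrogenase list rose. They were Pdha1, a subunit of the dehydrogenase that turns pyruvate into acetyl-CoA, which averaged 0.96 ± 0.078, and Idh2, the mitochondrial NADP-dependent isocitrate dehydrogenase, at 0.89 ± 0.130 (SD, n = 2), with adjusted p-values of 0.008 and 0.013 (limma). In glycolysis 6 of 24 genes rose and 1 fell, 29.2% of the list in all. Hk2, which phosphorylates glucose, averaged 1.10 and Slc2a1, the glucose transporter GLUT1, 1.02. Pfkfb3, Pkm, Ldhb and Eno1 averaged 0.89, 0.86, 0.83 and 0.77, and the Eno1 probe was placed on chromosome 2, away from the gene itself. Slc16a3, a lactate exporter, averaged -0.70. Of 13 nucleotide carriers, uncoupling proteins and inhibitors, Ckmt1, the mitochondrial creatine kinase, averaged -0.94 ± 0.423 and fell (adjusted p = 0.020, limma). That is 7.69% of the list. No list here had a median further than 0.12 from 0 after loess. With median centring all 8 medians were above 0, from 0.23 to 0.80.

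**Figure D3:**
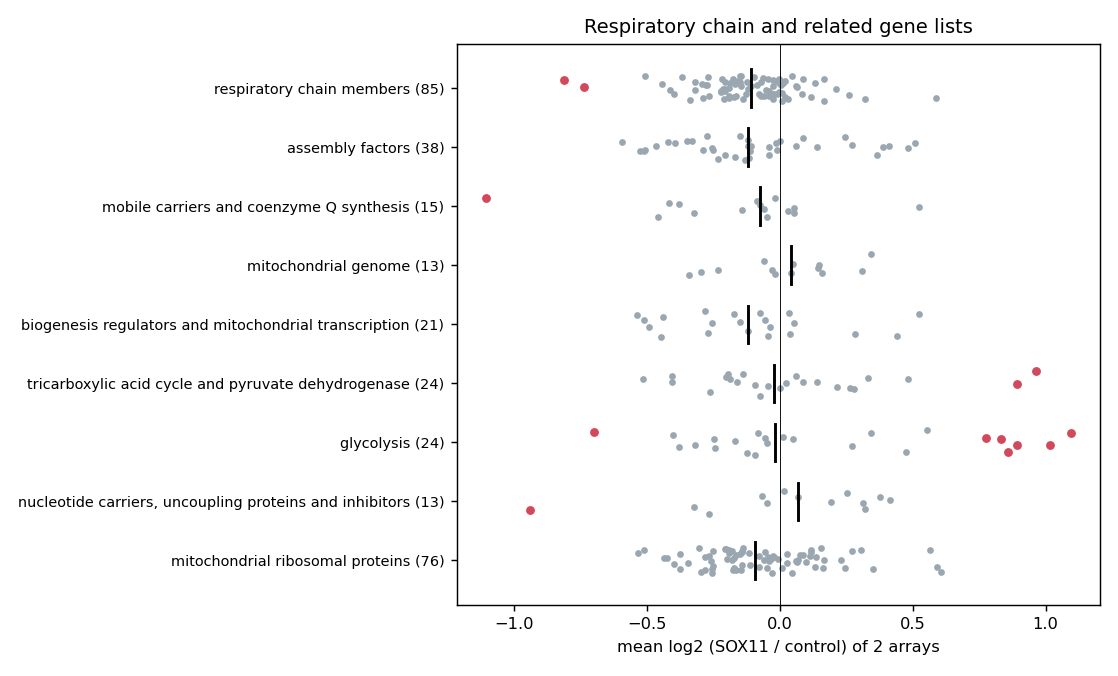
Mean log2 ratio of 2 arrays after loess for each gene (points) of the respiratory chain members and 8 related lists, with the number of genes in brackets, the median as a black bar and genes with an adjusted p under 0.05 in red. Calls are 2 of 85 among the members and 7 of 24 in glycolysis, and with median centring every list median lies above 0.

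Markers of other cells that an epidermal sheet can hold were read beside the members. Leukocyte markers had a median of -0.24, with 4 of 5 above background. Melanocyte markers had 0.19 (0.60 on array 1 and -0.06 on array 2), with 4 of 4 above background. None of the genes in these lists was past an adjusted p of 0.05 (limma). Skeletal muscle and fat (brown and white in 1 list) had 4 of 11 and 5 of 7 markers above background, and none of these 18 genes passed the test. Ckm and Mylpf of muscle and Adipoq and Plin1 of fat were not above background, while the other 5 fat markers were. Over the whole fat list the means ran from -0.54 to 0.72, and the largest gap between the arrays was 2.13. Of erythroid genes, Hbb-b1 rose with a mean of 1.56 and Hba-a1 with 1.21, 2 of 4 in the list, and of dermal fibroblast genes 1 of 6 fell (Dcn, -0.79), although the median of that list was 0.30, with -0.10 on array 1 and 0.50 on array 2. The medians of the basal and differentiated keratinocyte markers were -0.31 and 0.50, and none of the 5 genes in either list was past an adjusted p of 0.05. At an unadjusted p under 0.05 there were 2 (40%) and 4 (80%), beside 31.2% of probes above background. Fewer cells of a type and less RNA per cell cannot be told apart in such samples, and the part of these cells in the members' ratios was not tested.

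**Figure D4:**
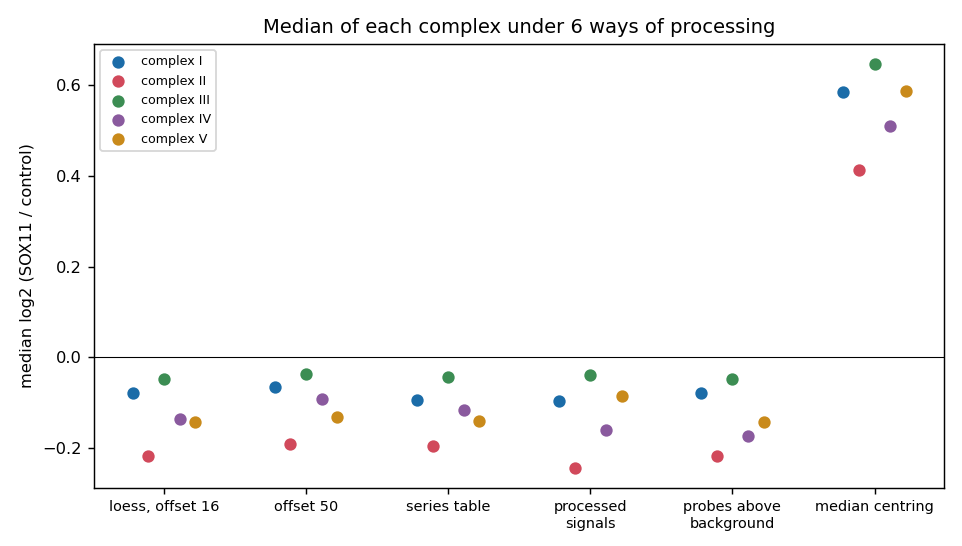
Median log2 ratio of SOX11-induced over control epidermis for each complex (coloured points) under 6 ways of processing the same 2 arrays. All 5 medians lie below 0 under the loess-based and processed values and above 0 with median centring, and complex II is the lowest of the 5 in each.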

How the data were processed

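Epidermis from 2 littermate pairs was measured on 2 two-colour Agilent arrays. The deposited intensity values of the scanner files are, per the file headers, spot and local background brightness from Agilent Feature Extraction 10.7.3.1, with probes placed on mm9. The deposited log2 ratios of the series table are the authors' values, which their methods describe as normexp-corrected and loess-normalized. The methods also describe a colour swap, which the labels do not show, and a ComBat step for the dyes.

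Mean brightness and median background were corrected by normexp with an offset of 16 and centred by loess in R 4.3.3 with limma 3.58.1, control spots having weight 0. Outlier spots were dropped (194 on array 1 and 186 on array 2 of 59305), and spots of a probe were averaged. An intercept was fitted to both ratios of each of 55676 probes (eBayes, prior of 8.34 degrees of freedom), with Benjamini-Hochberg adjustment over all. Since each array holds a littermate pair, its ratio is already a paired difference. The fit was tested on simulated data with independent noise and no dye or centring bias. Recovery was required only for changes larger than those of Sdhd and Cox6b2. A probe was above background where at least 0.5 of its spots were marked so. On arrays 1 and 2, 37.5% and 38.7% of spots were well above background in green and 40.6% and 42.6% in red. The number of arrays limits the precision.

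Named in full were members past an adjusted p of 0.05, the highest and lowest of each complex, the tissue isoforms with their partners and the subunit c genes. The values of 1 complex I gene are not reported here. The members and gene lists were chosen with earlier results of these data known. Symbols were matched to RefSeq (GRCm38.p6) for 85 of 85 names. The alternatives were an offset of 50, median centring, processed signals, the series table, only probes above background, the mean of a gene's probes, other choices of members, each array on its own and, chosen after seeing the data, loess with control spots included.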

Additional observations from a re-analysis of the deposited data

How the results depend on the processing

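The settings with loess, the series table and the processed signals kept the direction of the named members and of the complexes, apart from Cox6b1 and Cox7a1. Median centring did not. It gave medians of 0.57 for all members and 0.58, 0.41, 0.65, 0.51 and 0.59 for complexes I to V. It put 62 members past an adjusted p of 0.05 upwards and 0 downwards, beside 33.2% of all probes and 56.0% of those above background. It turned the sign of Atp5g1 (0.39), Atp5g2 (0.55), Atp5g3 (0.58), Atp5sl (0.0486), Cox4i1 (0.56), Cox6a2 (0.0063), Cox6b1 (0.62), Cox7a2 (0.64), Cox8a (0.52), Ndufa4l2 (0.50), Ndufs7 (0.25) and Uqcrc1 (0.24). Which centring is closer to the RNA was not tested.

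The count of members past the threshold was 1 higher (Cox5a) and 5 lower (Sdhd, Cox6b2, Atp5sl, Ndufs7 and Uqcrc1) with an offset of 50, under which 7.91% of all probes passed instead of 4.39%. It was 1 higher and 2 lower over probes above background (11.9% of all tested) and with the mean of a gene's probes (11.1%), 0 and 0 with processed signals (14 at an unadjusted p under 0.05, beside 17.5% of all probes), and 0 and 1 with the series table (3.43%). Processed signals turned Cox6b1 (0.00052) and Cox7a1 (-0.15), and the series table Cox7a1 (-0.0402), all near 0. No setting put a member past a log2 ratio of 1.5.

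Each array alone gives values with no test. The median ranged from -0.15 to -0.06 for all members, -0.15 to -0.03 for complex I, -0.25 to -0.18 for complex II, -0.10 to 0.01 for complex III, -0.15 to -0.0513 for complex IV and -0.17 to -0.0486 for complex V. It ranged from -0.18 to -0.11 for assembly factors, -0.19 to -0.0441 for carriers and ubiquinone synthesis, -0.07 to 0.17 for the mitochondrial genome, -0.15 to -0.13 for biogenesis regulators, 0.0094 to 0.10 for the tricarboxylic acid cycle, -0.08 to 0.12 for glycolysis, 0.04 to 0.10 for nucleotide carriers and -0.10 to -0.09 for mitochondrial ribosomal proteins.

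In these lists in turn, median centring gave medians of 0.33, 0.23, 0.80, 0.28, 0.63, 0.69, 0.66 and 0.49 with 14, 6, 11, 6, 15, 15, 7 and 45 genes past the threshold. These counts are to be read against 56.0% of probes above background past the threshold, and the same 33.2% of all probes. An offset of 50 (7.91% of all probes, dim ones included) put past the threshold 6 assembly factors, 3 carrier and ubiquinone genes, 1 mitochondrial genome gene, 3 biogenesis regulators, 4 tricarboxylic acid cycle genes, 8 glycolysis genes, 2 nucleotide carriers and 10 ribosomal proteins. The median was -0.0834 for biogenesis regulators and -0.0730 for ribosomal proteins. The fit is already on paired differences, so no further block for the pairs was fitted.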
